A study of Homo sapiens with 9 samples.

Results

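The genes carried by mitochondrial DNA were examined in the human cell line MDA-MB-231, established from a triple-negative breast cancer. They were taken as every gene that the deposited tables place on the mitochondrial chromosome, which gave 37 of 58735 genes: 13 protein-coding genes, 2 rRNA genes and 22 tRNA genes. The 9 libraries came from vehicle-treated cells (DMSO), from cells that survived increasing erastin (erastin-R) and from cells that survived increasing RSL3 (RSL3-R), with 3 libraries in each group. Erastin blocks cystine import and RSL3 blocks the lipid peroxidase GPX4, and both induce ferroptosis, a form of cell death driven by lipid peroxidation. The labels give no dose or duration and do not say whether the 3 libraries of a group came from separate cultures, so the p values measure the spread between these libraries, which may be technical. All cells were of the same line, and the surviving cells were selected populations, so selection and a response to the drug cannot be told apart.

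Both strands of mitochondrial DNA are transcribed as long precursors by POLRMT, the mitochondrial RNA polymerase, with TFAM and TFB2M at the promoters. Most of the tRNAs lie between the other genes, and their excision releases the rRNAs and mRNAs, so that neighbouring genes start from the same precursor and their levels then depend on processing and decay. The mRNAs encode core subunits of respiratory complexes I, III, IV and V, whose other subunits are encoded in the nucleus. Most mitochondrial mRNAs and the rRNAs carry short poly(A) tails, while mature tRNAs carry none. The libraries used poly(A)-selected RNA, so a tRNA read can come from a precursor or a tailed fragment as well as from a tRNA.

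Total counts ranged from 15405102 to 17273464 per library. VIM, CD44, EGFR and AXL, markers of a mesenchymal breast line, had at least 3670 counts in every library, while ESR1 and PGR, the hormone receptors, had at most 12. The leukocyte gene PTPRC had 3 to 24 counts, CDH1 6 to 59 and ERBB2 927 to 1598, while the endothelial gene PECAM1 had 154 to 177 counts in vehicle-treated, 20 to 36 in erastin-R and 199 to 222 in RSL3-R cells. Of the 37 genes, 28 passed the filter on low counts (all 15 mRNA and rRNA genes and 13 tRNA genes) and were tested among 16188 genes. In bulk RNA, fewer cells with an RNA and less of it per cell cannot be told apart, and the number of mitochondrial DNA copies was not measured.

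Erastin-R replicate 1 stood apart from the other erastin-R libraries in these genes, so changes that rest on erastin-R cells are given with and without it. That library was singled out by these same values, and the fits without it rest on erastin-R replicates 2 and 3. Removing it also narrows the spread, so p values and counts of called genes without it are not independent support. The mitochondrial genes held 7.97%, 8.33% and 8.93% of all counts in vehicle-treated replicates 1, 2 and 3. They held 7.95%, 5.55% and 5.84% in erastin-R cells. In RSL3-R cells the share was 10.1%, 9.52% and 10.2%, above every vehicle-treated library. Replicates 2 and 3 of the erastin-R cells were thus below every vehicle-treated library, and replicate 1 lay close to the lowest of them. The means were 8.41% ± 0.49, 6.45% ± 1.31 and 9.92% ± 0.35 (SD, n = 3), and the erastin-R mean without replicate 1 was 5.70%. Counting error alone was small, since the widest 95% Wilson interval of a library's share spanned 0.030 percentage points. MT-CO1 was the highest-counted gene of all in all 9 libraries.

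**Figure D1:**
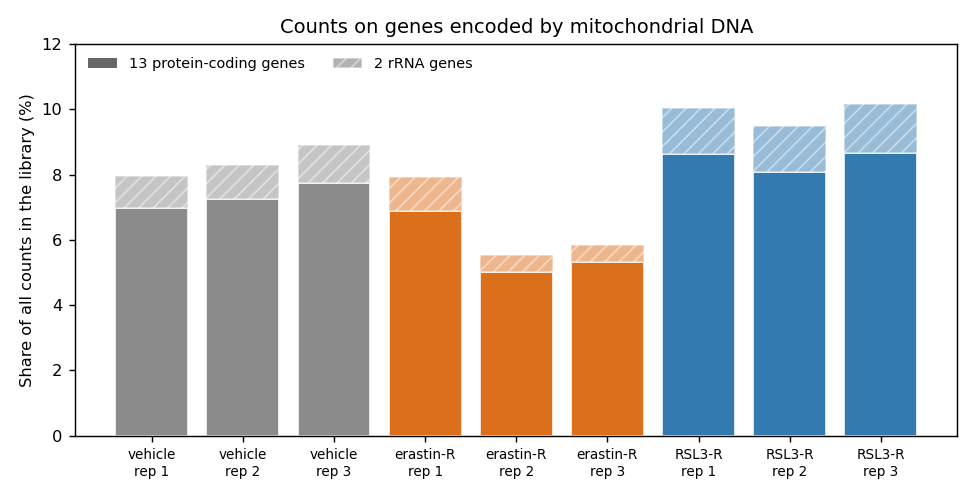
Share of all counts in each library (%) on the 13 protein-coding (solid) and 2 rRNA genes (hatched) of mitochondrial DNA, for 3 libraries per group; the tRNA genes held at most 0.0274% and are not drawn. The RSL3-R libraries reached 9.52% to 10.2%, while erastin-R replicate 1 (7.95%) stood above replicates 2 (5.55%) and 3 (5.84%).

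Levels within vehicle-treated cells spanned a wide range once divided by gene length. MT-CO2 (13689 ± 1267 CPM per kilobase, where CPM is the count scaled to the library size, SD, n = 3) and MT-CO1 (13261 ± 985) led, and their ranges overlapped. MT-CO3 (11743 ± 438), MT-ATP6 (8660 ± 290) and MT-ND4L (7515 ± 656) followed, each with a range apart from the next. MT-ND4 (6076 ± 500) and the 16S rRNA gene MT-RNR2 (5957 ± 617) overlapped. Below them came MT-ND2 (5028 ± 259), MT-CYB (4469 ± 260), MT-ND3 (3699 ± 272), MT-ND1 (3083 ± 179) and MT-ND5 (1700 ± 153). The 12S rRNA gene MT-RNR1 (1466 ± 71) and MT-ND6 (1413 ± 128), the sole protein-coding gene read from the other strand, overlapped, and MT-ATP8 (269 ± 101) was the lowest. Poly(A) selection sets the level of the rRNAs relative to the mRNAs in such libraries, and unique mapping lowers genes with nuclear copies, so this order describes the libraries. MT-ATP8 has 207 bases and shares 46 of them with MT-ATP6, so some of its reads overlap both genes. The part this had in its low level was not tested.

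In erastin-R against vehicle-treated cells, edgeR's quasi-likelihood test with Benjamini-Hochberg adjustment over all genes placed 16 of the 28 tested genes lower (6 mRNAs, 2 rRNAs and 8 tRNAs) and 1 higher, MT-ND4. Among all genes tested in this comparison, 26.8% were called lower and 27.1% higher. A fall of at least 2-fold was called for 9 of the 28 (MT-RNR1 and 8 tRNAs), against 6.66% of all genes. The median log2 fold change of the mRNAs was -0.29, against -0.00 for all genes. Without replicate 1, 22 genes were called lower (10 mRNAs, 2 rRNAs and 10 tRNAs) against 30.3% of all genes, and 1 higher against 29.6%. The 2-fold rule was then met by 16 members that fell, against 7.94% of all genes, and the median of the mRNAs was -0.43. The mRNAs did not move together: in the fit without replicate 1 their log2 fold changes ran from -1.55 (MT-ND4L) to 0.12 (MT-ND4), although these 2 genes lie on the same transcript.

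**Figure D2:**
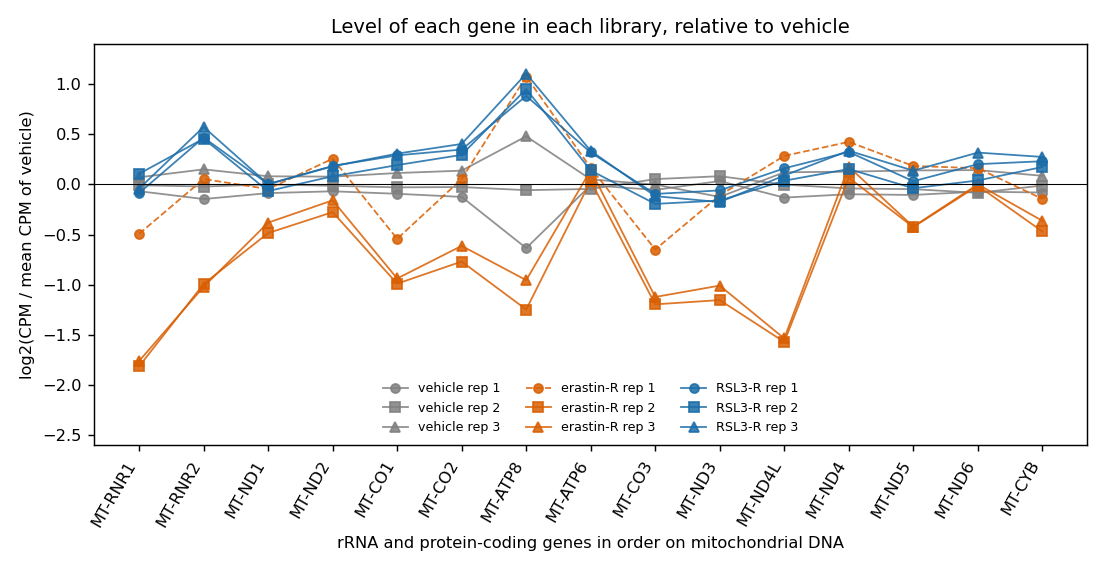
Log2 of each rRNA and mRNA level (CPM) over the vehicle-treated mean, for the genes in order along mitochondrial DNA, with 1 line per library (grey vehicle, orange erastin-R with replicate 1 dashed, blue RSL3-R). Erastin-R replicates 2 and 3 ran together from -1.81 at MT-RNR1 up to 0.18 at MT-ND4, while replicate 1 shared the lower values at MT-RNR1, MT-CO1 and MT-CO3 but not at MT-ND4L.

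The subunits of complex IV, cytochrome c oxidase, fell in erastin-R cells. MT-CO1, which holds the catalytic haem and copper site, was counted at 19171, 20047 and 22129 CPM in vehicle-treated replicates 1 to 3. It was at 14044, 10305 and 10680 CPM in erastin-R cells. In RSL3-R cells it was at 25003, 23373 and 25307 CPM, so the groups did not overlap. MT-CO1 fell in erastin-R (log2 fold change -0.81, SE 0.10, adjusted p = 1.02e-05, and -0.96 without replicate 1) and rose in RSL3-R cells (0.26, SE 0.10, adjusted p = 0.036). The RSL3-R call held in 13 of 19 alternatives.

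MT-CO3, a core subunit beside MT-CO1, was at 8868, 9554 and 9197 CPM in vehicle-treated and 5874, 4022 and 4232 CPM in erastin-R cells. It was at 8624, 8049 and 8493 CPM in RSL3-R cells, just under the vehicle-treated range. Its fall in erastin-R cells (log2 fold change -0.97, SE 0.11, adjusted p = 4.92e-06, and -1.16 without replicate 1) was shared by replicate 1 and passed the threshold under all 19 alternatives. In RSL3-R cells MT-CO3 did not pass (-0.13, SE 0.11, adjusted p = 0.32). MT-CO2, which takes electrons from cytochrome c, was at 8592, 9197 and 10301 CPM in vehicle-treated, 9721, 5498 and 6126 CPM in erastin-R and 11916, 11488 and 12387 CPM in RSL3-R cells. Erastin-R replicate 1 was inside the vehicle-treated range of MT-CO2, and the call there (-0.40, SE 0.15, adjusted p = 0.041) held in 10 of 19 alternatives. Without replicate 1 the log2 fold change of MT-CO2 was -0.69 (SE 0.05, adjusted p = 2.34e-12).

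The 7 complex I genes, which encode the membrane arm of NADH dehydrogenase, divided in erastin-R cells. MT-ND3 was at 1310, 1355 and 1175 CPM in vehicle-treated, 1187, 576 and 636 CPM in erastin-R and 1228, 1146 and 1133 CPM in RSL3-R cells. It fell in erastin-R cells (log2 fold change -0.68, SE 0.19, adjusted p = 0.0083), with replicate 1 inside the vehicle-treated range. Without replicate 1 the log2 fold change of MT-ND3 was -1.08 (SE 0.05, adjusted p = 2.24e-16), which meets the 2-fold rule. MT-ND1 was at 2776, 2948 and 3119 CPM in vehicle-treated, 2856, 2107 and 2264 CPM in erastin-R and 2956, 2816 and 2952 CPM in RSL3-R cells, and fell in erastin-R cells (-0.29, SE 0.09, adjusted p = 0.014, and -0.43 without replicate 1). The call of MT-ND1 held in 15 of 19 alternatives. For both genes the RSL3-R libraries lay within or just below the vehicle-treated range and neither passed the test there.

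MT-ND2 was at 4997, 5190 and 5530 CPM in vehicle-treated, 6261, 4328 and 4695 CPM in erastin-R and 5953, 5545 and 5940 CPM in RSL3-R cells. Its erastin-R libraries lay on both sides of the vehicle-treated range, and it passed in neither comparison with vehicle. MT-ND5 behaved likewise, at 2865, 2982 and 3394 CPM in vehicle-treated, 3500, 2295 and 2301 CPM in erastin-R and 3149, 3001 and 3388 CPM in RSL3-R cells. Without replicate 1 both fell in erastin-R cells (log2 fold change -0.22, SE 0.04, adjusted p = 6.22e-05 for MT-ND2, and -0.42, SE 0.05, adjusted p = 3.92e-08 for MT-ND5).

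MT-ND4 and MT-ND6 were not lower in any erastin-R library than in the lowest vehicle-treated library. MT-ND4 was at 7826, 8146 and 9147 CPM in vehicle-treated, 11236, 8778 and 9466 CPM in erastin-R and 10481, 9313 and 10573 CPM in RSL3-R cells. It rose in erastin-R (log2 fold change 0.23, SE 0.09, adjusted p = 0.038, and 0.12, SE 0.05, adjusted p = 0.038 without replicate 1) and in RSL3-R cells (0.27, SE 0.09, adjusted p = 0.019). The erastin-R call of MT-ND4 held in 14 of 19 alternatives. It was lost without vehicle replicate 1, without vehicle replicate 2, without RSL3-R replicate 3 and in a fit of only these 2 groups. It was also lost when MT-ND4 was summed with MT-ND4L (log2 fold change 0.08, adjusted p = 0.55). The RSL3-R call held in 16 of 19 alternatives, and the summed pair did not pass there (0.24, adjusted p = 0.094). MT-ND6, from the light-strand promoter, was at 706, 700 and 819 CPM in vehicle-treated, 830, 736 and 743 CPM in erastin-R and 854, 763 and 925 CPM in RSL3-R cells. It did not pass in erastin-R cells, where its log2 fold change was 0.05 (SE 0.08, adjusted p = 0.61), and -0.01 without replicate 1. The strand setting of the counting was not given in the sources used here, so MT-ND6 counts may include reads of the opposite precursor.

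MT-CYB, the cytochrome b of complex III, was at 4822, 5061 and 5413 CPM in vehicle-treated, 4615, 3686 and 3968 CPM in erastin-R and 5986, 5752 and 6167 CPM in RSL3-R cells. The groups did not overlap. It fell in erastin-R (log2 fold change -0.32, SE 0.08, adjusted p = 0.0027, and -0.42 without replicate 1) and rose in RSL3-R cells (0.23, SE 0.08, adjusted p = 0.023). MT-ATP6, the proton channel subunit of ATP synthase, was at 5866, 5717 and 6108 CPM in vehicle-treated, 6611, 6045 and 6510 CPM in erastin-R and 7354, 6497 and 7439 CPM in RSL3-R cells. The RSL3-R libraries were all above the vehicle-treated ones, and the rise passed the test (0.27, SE 0.06, adjusted p = 0.0027). In erastin-R cells MT-ATP6 did not pass (0.12, SE 0.06, adjusted p = 0.13, and 0.09, adjusted p = 0.087 without replicate 1).

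In both bicistronic gene pairs of mitochondrial DNA, the erastin-R changes were unequal in the fit without erastin-R replicate 1. That library had been singled out by values of the mitochondrial genes. Over all libraries neither MT-ND4L nor MT-ATP8 passed the test against vehicle. MT-ATP8 with MT-ATP6, and MT-ND4L with MT-ND4, each share a bicistronic mRNA in which the reading frames overlap. The junctions are shown because a read there overlaps both genes, whereas outside them the genes can be counted apart. How the counting treated reads that overlap both genes was not known here. The part such reads had in the ratios between the paired genes was not tested. The bases are those of the GENCODE release 29 transcripts on GRCh38, and the capitals mark the 46 bases shared by MT-ATP8 and MT-ATP6 and the 7 bases shared by MT-ND4L and MT-ND4.
MT-ATP8/MT-ATP6, chrM:8512-8587, plus strand: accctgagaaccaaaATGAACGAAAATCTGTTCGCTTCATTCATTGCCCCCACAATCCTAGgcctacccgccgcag
MT-ND4L/MT-ND4, chrM:10745-10781, plus strand: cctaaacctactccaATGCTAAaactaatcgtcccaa

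MT-ND4L was at 2038, 2230 and 2428 CPM in vehicle-treated, 2719, 752 and 771 CPM in erastin-R and 2495, 2291 and 2374 CPM in RSL3-R cells. Per 100 MT-ND4 counts there were 26.0, 27.4 and 26.5 MT-ND4L counts in vehicle-treated and 23.8, 24.6 and 22.5 in RSL3-R cells. The erastin-R libraries had 24.2, 8.57 and 8.14, so the ratio was low in replicates 2 and 3 and near the other groups in replicate 1. MT-ND4L did not pass the test over all libraries (log2 fold change -0.66, SE 0.35, adjusted p = 0.13). Without replicate 1 it fell by 1.55 on the log2 scale (SE 0.05, adjusted p = 6.00e-20). Summed as a single transcript, MT-ND4L and MT-ND4 had a log2 fold change of 0.08 (SE 0.11, adjusted p = 0.55) in erastin-R cells.

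MT-ATP8 was at 35.8, 53.5 and 77.5 CPM in vehicle-treated, 117, 23.4 and 28.7 CPM in erastin-R and 103, 107 and 120 CPM in RSL3-R cells. Erastin-R replicate 1 was high and replicates 2 and 3 were below every vehicle-treated library, while all RSL3-R libraries were above the vehicle-treated ones. It passed neither comparison with vehicle over all libraries (log2 fold change 0.03, SE 0.44, adjusted p = 0.96 in erastin-R, and 0.98, SE 0.44, adjusted p = 0.078 in RSL3-R cells). Without erastin-R replicate 1 the first of these turned negative (-1.09, SE 0.17, adjusted p = 3.13e-06) and the RSL3-R value passed (0.98, SE 0.13, adjusted p = 2.38e-07). Per 100 MT-ATP6 counts there were 0.611, 0.935 and 1.27 MT-ATP8 counts in vehicle-treated, 1.77, 0.388 and 0.441 in erastin-R and 1.39, 1.65 and 1.61 in RSL3-R cells. The vehicle-treated libraries alone thus differed more than 2-fold in this ratio.

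RN7SL2, an RNA of the signal recognition particle that is encoded in the nucleus and lacks a long poly(A) tail, also varied between libraries of a group. It had 1263, 932 and 432 counts in vehicle-treated, 361, 1522 and 1567 in erastin-R and 497, 366 and 197 in RSL3-R cells. The libraries with many RN7SL2 counts were those with few MT-ATP8 counts per MT-ATP6 count, in vehicle-treated and in erastin-R cells, an order noticed after the values were seen. The other RNAs of this kind that were listed, RN7SL1, RN7SK, RMRP and RPPH1, stood at 0 in every library. Genes of snRNAs had 487, 436 and 468 counts in vehicle-treated, 595, 631 and 568 in erastin-R and 630, 573 and 584 in RSL3-R cells. Genes of snoRNAs had 897, 870 and 875, then 993, 925 and 984, then 889, 856 and 876 counts. Neither class had the order of RN7SL2 within any group. Clustered histone genes, whose mRNAs also lack poly(A) tails, had 1757 to 1851 counts in vehicle-treated, 2828 to 3753 in erastin-R and 3071 to 3449 in RSL3-R cells with erastin-R replicate 1 the highest of all. The part that capture of short or untailed RNAs had in the mitochondrial values was not tested.

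**Figure D3:**
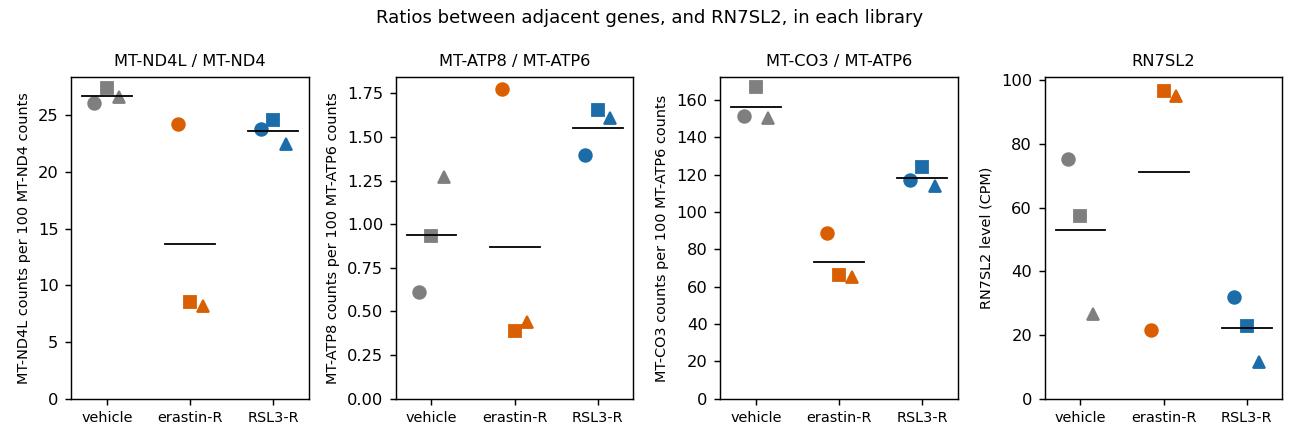
MT-ND4L per 100 MT-ND4 counts, MT-ATP8 per 100 MT-ATP6 counts, MT-CO3 per 100 MT-ATP6 counts and the RN7SL2 level (CPM) in each library (circle, square and triangle for replicates 1, 2 and 3; the line is the group mean, n = 3). Erastin-R replicates 2 and 3 were low for MT-ND4L/MT-ND4 (8.57 and 8.14) and high for RN7SL2, and all 3 erastin-R libraries were low for MT-CO3/MT-ATP6 (65.0 to 88.9).

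Some other ratios within a library had all erastin-R libraries, replicate 1 included, outside the range of both other groups. All 13 pairs of adjacent mRNA and rRNA genes on the heavy-strand transcript were computed, and those named here were chosen after the values were seen and carry no test. MT-CO3 counts per 100 counts of its upstream neighbour MT-ATP6 were 151, 167 and 151 in vehicle-treated, 88.9, 66.5 and 65.0 in erastin-R and 117, 124 and 114 in RSL3-R cells. In the annotation MT-ATP6 ends at base 9207, where MT-CO3 starts, so a read across that base touches both genes. MT-ND2 counts per 100 MT-CO1 counts were 26.1, 25.9 and 24.99 in vehicle-treated, 44.6, 42.0 and 44.0 in erastin-R and 23.8, 23.7 and 23.5 in RSL3-R cells. Neither ratio depends on the normalization between libraries, and in both the 3 groups did not overlap. MT-ND1 counts per 100 MT-ND2 counts were 55.6, 56.8 and 56.4 in vehicle-treated, 45.6, 48.7 and 48.2 in erastin-R and 49.7, 50.8 and 49.7 in RSL3-R cells, lower in both surviving groups. MT-ND4 per 100 MT-ND5 counts moved the other way, at 273, 273 and 270 in vehicle-treated, 321, 383 and 411 in erastin-R and 333, 310 and 312 in RSL3-R cells, where erastin-R replicate 1 lay inside the RSL3-R range.

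The rRNA genes lie first on the heavy-strand transcript and also changed unequally. MT-RNR1, the 12S rRNA of the small ribosomal subunit, was at 1335, 1391 and 1470 CPM in vehicle-treated, 995, 398 and 413 CPM in erastin-R and 1319, 1506 and 1359 CPM in RSL3-R cells. All erastin-R libraries were below the others, and MT-RNR1 fell there (log2 fold change -1.22, SE 0.25, adjusted p = 0.0010, and -1.79, SE 0.05, without replicate 1). MT-RNR2, the 16S rRNA of the large subunit, was at 8396, 9156 and 10307 CPM in vehicle-treated, 9640, 4670 and 4580 CPM in erastin-R and 12840, 12743 and 13817 CPM in RSL3-R cells. It fell in erastin-R cells (-0.56, SE 0.21, adjusted p = 0.035, and -1.01, SE 0.05, without replicate 1), and replicate 1 was inside the vehicle-treated range. Over all libraries the call of MT-RNR2 held in 13 of 19 alternatives and was lost in a fit of only these 2 groups (adjusted p = 0.073). In RSL3-R cells MT-RNR2 was above every vehicle-treated library but did not pass (0.50, SE 0.21, adjusted p = 0.061), and passed without erastin-R replicate 1 (0.50, SE 0.05, adjusted p = 1.48e-10). MT-RNR1 counts per 100 MT-RNR2 counts were 15.9, 15.2 and 14.3 in vehicle-treated, 10.3, 8.52 and 9.02 in erastin-R and 10.3, 11.8 and 9.84 in RSL3-R cells, so both surviving groups were below all vehicle-treated libraries.

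The tRNA genes held at most 0.0274% of the counts of a library, and 3 of them, MT-TN, MT-TC and MT-TP, held 87.6% of all tRNA counts. These 3 and MT-TY are encoded on the light strand, opposite to most of the mRNAs, while MT-TL1 and MT-TH lie on the heavy-strand transcript. The strand setting of the counting was not given in the sources used here, so reads of an opposite precursor cannot be told apart from tRNA reads. The 6 tRNA genes with the highest counts are shown as DNA from the GENCODE release 29 transcripts on GRCh38, with the anticodon in capitals, since their short length and lack of a gene-encoded CCA end bear on what a counted read can be.
MT-TN (asparagine), chrM:5657-5729, minus strand: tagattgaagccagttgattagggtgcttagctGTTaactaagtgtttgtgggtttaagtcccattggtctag
MT-TC (cysteine), chrM:5761-5826, minus strand: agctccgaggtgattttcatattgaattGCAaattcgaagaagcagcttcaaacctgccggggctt
MT-TP (proline), chrM:15956-16023, minus strand: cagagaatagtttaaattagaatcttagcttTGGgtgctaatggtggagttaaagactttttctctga
MT-TL1 (leucine), chrM:3230-3304, plus strand: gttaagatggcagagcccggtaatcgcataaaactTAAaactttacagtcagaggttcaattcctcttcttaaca
MT-TY (tyrosine), chrM:5826-5891, minus strand: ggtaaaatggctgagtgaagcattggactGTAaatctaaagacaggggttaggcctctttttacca
MT-TH (histidine), chrM:12138-12206, plus strand: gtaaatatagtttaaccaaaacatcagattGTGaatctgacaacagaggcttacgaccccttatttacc

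MT-TN had 2119, 1761 and 1739 counts in vehicle-treated, 1558, 326 and 402 in erastin-R and 1471, 2082 and 1775 in RSL3-R cells. MT-TC had 1409, 957 and 873 counts in vehicle-treated, 738, 255 and 249 in erastin-R and 624, 913 and 734 in RSL3-R cells. Both fell in erastin-R cells (log2 fold change -1.31, SE 0.39, adjusted p = 0.011 for MT-TN, and -1.38, SE 0.31, adjusted p = 0.0018 for MT-TC), where replicates 2 and 3 were far below replicate 1. Without replicate 1 the log2 fold changes were -2.34 (SE 0.11, adjusted p = 4.74e-17) for MT-TN and -2.07 (SE 0.15, adjusted p = 1.31e-12) for MT-TC. MT-TP, at the far end of the map, had 387, 413 and 496 counts in vehicle-treated, 573, 150 and 175 in erastin-R and 632, 562 and 703 in RSL3-R cells. It did not pass over all libraries in erastin-R cells (-0.54, SE 0.34, adjusted p = 0.20) and fell by 1.39 on the log2 scale without replicate 1 (SE 0.12, adjusted p = 7.88e-11).

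Some tRNA genes were low in all 3 erastin-R libraries. MT-TH had 130, 75 and 78 counts in vehicle-treated, 24, 5 and 4 in erastin-R and 27, 35 and 16 in RSL3-R cells. It lies just downstream of MT-ND4, and fell in erastin-R (log2 fold change -3.08, SE 0.45, adjusted p = 6.48e-05) and RSL3-R cells (-1.83, SE 0.40, adjusted p = 0.0017) under all 19 alternatives. MT-TY had 155, 68 and 93 counts in vehicle-treated, 22, 28 and 25 in erastin-R and 34, 65 and 26 in RSL3-R cells, and also fell in both (-2.06, SE 0.35, adjusted p = 2.34e-04, and -1.31, SE 0.33, adjusted p = 0.0045). MT-TL1, between the rRNA genes and MT-ND1, had 188, 139 and 232 counts in vehicle-treated, 90, 60 and 53 in erastin-R and 156, 127 and 141 in RSL3-R cells. It fell in erastin-R cells (-1.46, SE 0.21, adjusted p = 5.95e-05). Without erastin-R replicate 1 the log2 fold changes in erastin-R cells were -4.32 for MT-TH, -1.95 for MT-TY and -1.69 for MT-TL1.

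The other 7 tested tRNA genes had 1 to 43 counts. MT-TE had 26, 13 and 43 counts in vehicle-treated, 8, 2 and 4 in erastin-R and 11, 16 and 8 in RSL3-R cells and fell in both comparisons (log2 fold change -2.52, SE 0.54, adjusted p = 0.0014, and -1.20, SE 0.47, adjusted p = 0.046). The RSL3-R call of MT-TE held in 12 of 19 alternatives, with adjusted p values from 0.012 to 0.27. MT-TR (20, 23 and 32 against 11, 5 and 6 counts) and MT-TT (35, 27 and 41 against 20, 5 and 13 counts) fell in erastin-R cells (-1.75, SE 0.37, adjusted p = 0.0011, and -1.43, SE 0.38, adjusted p = 0.0055). Without replicate 1 the erastin-R values were -3.11 for MT-TE, -2.14 for MT-TR and -1.89 for MT-TT. In RSL3-R cells MT-TR had 18, 22 and 23 counts and MT-TT 21, 32 and 36, and neither passed. MT-TV had 31, 18 and 19 counts in vehicle-treated, 18, 10 and 4 in erastin-R and 8, 17 and 9 in RSL3-R cells, and MT-TI had 15, 16 and 16, then 11, 15 and 3, then 6, 8 and 10. MT-TG had 31, 19 and 32 counts in vehicle-treated, 34, 25 and 17 in erastin-R and 10, 26 and 9 in RSL3-R cells, and MT-TS2 12, 3 and 7, then 13, 7 and 10, then 6, 10 and 1. These 4 passed in no comparison over all libraries. Without erastin-R replicate 1, MT-TV passed in erastin-R (-1.65, SE 0.52, adjusted p = 0.0075) and RSL3-R cells (-0.98, SE 0.42, adjusted p = 0.047). The 9 tRNA genes under the filter (MT-TF, MT-TQ, MT-TM, MT-TW, MT-TA, MT-TS1, MT-TD, MT-TK and MT-TL2) had 0 to 23 counts and were not tested.

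**Figure D4:**
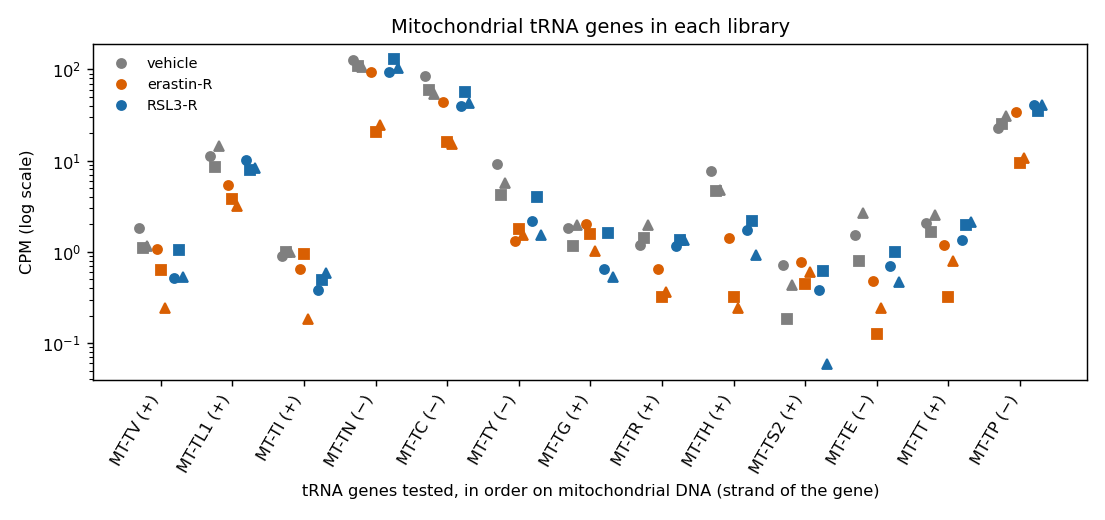
Level (CPM, log scale) of the 13 tested tRNA genes in each library, in order along mitochondrial DNA with the gene's strand in brackets (circle, square and triangle for replicates 1, 2 and 3). MT-TN, MT-TC and MT-TP stood above the rest, and erastin-R replicates 2 and 3 lay below all other libraries for these 3 genes.

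In RSL3-R against vehicle-treated cells, 4 of the 28 tested genes rose (MT-CO1, MT-ATP6, MT-ND4 and MT-CYB) and 3 tRNA genes fell (MT-TY, MT-TH and MT-TE), against 23.8% of all genes called higher and 24.9% called lower. The 3 tRNA genes also met the 2-fold rule, against 4.08% of all genes called lower by it. The median log2 fold change of the mRNAs was 0.19, and of all genes 0.01. These counts depended on the libraries in the fit: without erastin-R replicate 1, which enters this comparison through the shared normalization, filter and spread, 10 genes were higher (8 mRNAs, MT-RNR2 and MT-TP) and 8 lower, including MT-CO3 and MT-ND3, against 27.4% and 29.2% of all genes. Without erastin-R replicate 2, 7 genes were higher, and without vehicle replicate 1 or without vehicle replicate 2 only 1 was. The shares of all genes in these last fits are not given, so these counts show only how the calls depend on the libraries. Over all libraries the changes of the mRNAs in this comparison were below 2-fold, while MT-ATP8, which did not pass there (0.98), ranged from 0.74 to 1.30 over the alternatives.

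The direct comparison placed RSL3-R above erastin-R cells for 14 of the 28 tested genes, against 22.3% of all genes. They were MT-CO1, MT-CO2, MT-CO3, MT-CYB, MT-ND1, MT-ND3, both rRNAs and the tRNA genes MT-TL1, MT-TN, MT-TC, MT-TR, MT-TT and MT-TP. The 2-fold rule was met by 8 of them, against 6.86% of all genes, and MT-CO1 was the mRNA among these (log2 fold change 1.07, SE 0.10, adjusted p = 1.27e-06). MT-RNR1 (1.21, SE 0.25, adjusted p = 0.0012) and MT-RNR2 (1.06, SE 0.21, adjusted p = 8.75e-04) were also higher. Without erastin-R replicate 1 these 3 values were 1.23, 1.78 and 1.504. No member was called lower, where edgeR called 26.9% of all genes lower, and no member was lower at an unadjusted p under 0.05. Without erastin-R replicate 1, 23 members were higher, among them all 15 mRNA and rRNA genes, against 27.1% of all genes, and 15 met the 2-fold rule against 8.15%. Without erastin-R replicate 3, 9 were higher, a count given without the share of all genes in that fit. The log2 fold changes of all 13 mRNAs were positive, from 0.04 (MT-ND4) to 1.07, except that quantile normalization turned MT-ND2, MT-ND4 and MT-ATP6 negative.

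Nuclear copies limit how firmly some of these genes can be counted. The annotation names 407 nuclear pseudogenes after mitochondrial genes, of which 302 had no count in any library and 3 held 99.4% of the counts. All 3 lie on chromosome 1 of GRCh38: MTND2P28 from 629640 to 630683, MTCO1P12 from 631074 to 632616 and MTATP6P1 from 633696 to 634376. MTATP6P1 had 6942, 11065 and 10484 counts in vehicle-treated, 11942, 9200 and 9936 in erastin-R and 12497, 10165 and 15098 in RSL3-R cells. MTND2P28 had 7028, 6162 and 7144, then 6060, 5467 and 6281, then 6565, 5453 and 6471 counts, and MTCO1P12 had 1213, 1722 and 1500, then 948, 1053 and 1183, then 1363, 1499 and 1627. Their levels overlapped between groups, except for MTCO1P12, which was lower in all erastin-R libraries. That gap was narrow (1183 counts in erastin-R replicate 3 against 1213 in vehicle-treated replicate 1), unlike that of its parent gene MT-CO1. It also depended on the normalization between libraries.

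Reads that match a copy exactly were not counted on either gene, since only uniquely mapped reads were used. Of the 50-base words of MT-CO1, 49.5% also occur in another annotated transcript, against 46.7% for MT-ATP6, 43.6% for MT-ND2, 30.6% for MT-CO3, 28.98% for MT-CO2 and 22.1% for MT-ND1. MT-ATP6 and MTATP6P1 differ at 10 of 681 bases. For MT-RNR1, MT-ND3, MT-ND4L and all tRNA genes the share was 0%, which covers annotated transcripts only. The part that reads shared with nuclear copies had in the changes was not tested.

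Many subunit genes encoded in the nucleus fell in RSL3-R cells. Of 75 nuclear subunit genes of complexes I, III, IV and V, all tested, 53 fell and 2 rose there, against 24.9% of all genes called lower and 23.8% called higher, and their median log2 fold change was -0.41. The mitochondrial genes number 7 for complex I, 1 for complex III, 3 for complex IV and 2 for complex V, so the value for complex V is the mean of MT-ATP6 (0.27) and MT-ATP8 (0.98, which did not pass). Per complex, the medians of mitochondrial and nuclear genes were 0.10 and -0.33 for complex I, 0.23 and -0.50 for complex III, 0.26 and -0.43 for complex IV, and 0.63 and -0.45 for complex V. In erastin-R cells 38 nuclear subunit genes fell and 6 rose, against 26.8% and 27.1% of all genes, with a median of -0.22. Without replicate 1, 42 fell and 12 rose, against 30.3% and 29.6%. Over all libraries the erastin-R medians of mitochondrial and nuclear genes were -0.19 and -0.12 for complex I and -0.32 and -0.22 for complex III. They were -0.81 and -0.27 for complex IV, and 0.07 and -0.34 for complex V. Without replicate 1 the medians were -0.42 and -0.16 for complex I, -0.42 and -0.26 for complex III, -0.96 and -0.28 for complex IV, and -0.50 and -0.37 for complex V. In RSL3-R against erastin-R cells 29 nuclear genes were lower and 3 higher, against 26.9% and 22.3% of all genes. Without erastin-R replicate 1 the same counts were 29 and 13, where 27.1% of all genes were called higher. The share of all genes called lower in that fit is not given. The difference between the 2 sets of genes was not tested.

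COX6A1, a small structural subunit of complex IV, fell in RSL3-R cells, at 39.1, 27.4 and 23.3 CPM in vehicle-treated, 19.3, 16.2 and 15.1 CPM in erastin-R and 13.6, 16.0 and 12.6 CPM in RSL3-R cells (log2 fold change -1.09, SE 0.17, adjusted p = 1.22e-04). ATP5MC1, which encodes the c-ring of ATP synthase, fell from 74.2, 65.2 and 68.7 CPM to 33.1, 33.5 and 35.9 CPM in RSL3-R cells (-1.02, SE 0.10, adjusted p = 2.57e-06). In erastin-R cells it was at 44.8, 58.1 and 61.6 CPM. NDUFV2, an iron-sulfur subunit of complex I, went the other way and rose in erastin-R cells, at 3.21, 3.58 and 3.02 CPM in vehicle-treated against 10.2, 9.72 and 9.29 CPM (1.57, SE 0.16, adjusted p = 2.47e-06, and 1.54 without replicate 1).

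**Figure D5:**
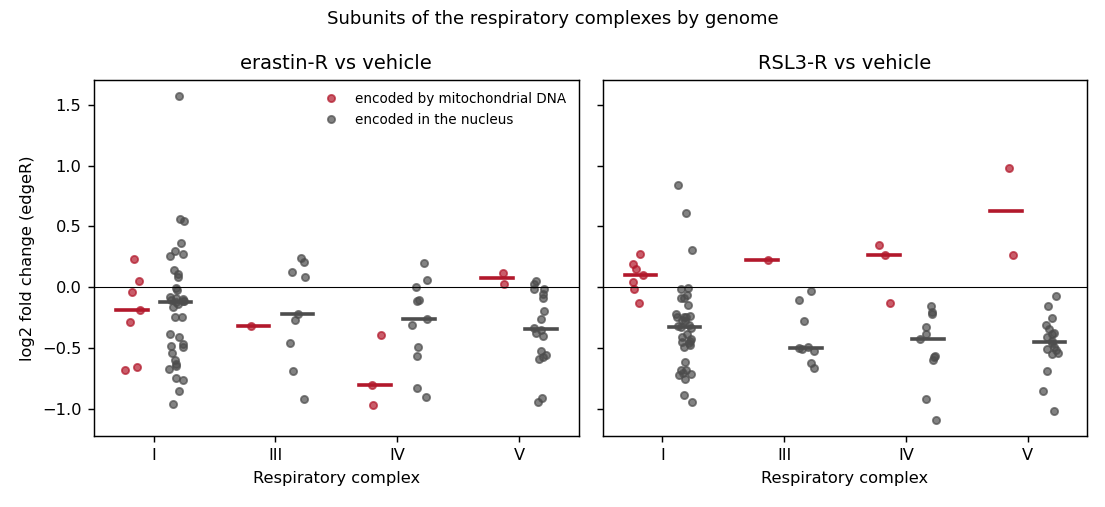
Log2 fold change against vehicle of each subunit gene of complexes I, III, IV and V, by genome (red mitochondrial, grey nuclear), for each surviving group; each point is a gene and the bar is the median. In RSL3-R cells the mitochondrial medians were 0.10 to 0.63 and the nuclear medians -0.50 to -0.33.

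Of 57 nuclear genes that transcribe and maintain mitochondrial DNA or process its RNA, all tested, 19 rose and 16 fell in erastin-R cells, where 27.1% of all genes were called higher and 26.8% lower. In RSL3-R cells 10 rose and 20 fell, against 23.8% and 24.9% of all genes. Without erastin-R replicate 1, 23 rose and 23 fell in erastin-R cells, against 29.6% and 30.3% of all genes. The erastin-R counts were thus near the share over all genes. POLRMT was at 88.7, 85.1 and 81.4 CPM in vehicle-treated, 139, 216 and 205 CPM in erastin-R and 87.5, 93.1 and 85.3 CPM in RSL3-R cells. It rose in erastin-R cells (log2 fold change 1.13, SE 0.12, adjusted p = 4.14e-06), where replicate 1 was the lowest of the 3, and the value without it was 1.31. TFB2M, its partner at the promoter, had 420, 424 and 437 counts in vehicle-treated against 493, 624 and 632 in erastin-R cells and rose there (0.46, SE 0.11, adjusted p = 0.0023, and 0.58 without replicate 1). TFAM, which also packages the DNA, was at 93.2, 95.6 and 99.7 CPM in vehicle-treated, 62.4, 64.2 and 63.1 CPM in erastin-R and 73.7, 73.6 and 71.5 CPM in RSL3-R cells. It fell in both (-0.60, SE 0.06, adjusted p = 1.49e-06, and -0.40, SE 0.06, adjusted p = 7.50e-05), and its erastin-R libraries lay close together (-0.60 without replicate 1).

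Among replication genes, POLG, the catalytic subunit of the mitochondrial DNA polymerase, was at 81.6, 72.4 and 69.0 CPM in vehicle-treated, 114, 131 and 131 CPM in erastin-R and 64.8, 66.6 and 63.5 CPM in RSL3-R cells. It rose in erastin-R cells (log2 fold change 0.75, SE 0.08, adjusted p = 2.39e-06, and 0.81 without replicate 1). The helicase gene TWNK passed in neither comparison (0.20, SE 0.10, adjusted p = 0.086 in erastin-R, and 0.08, SE 0.10, adjusted p = 0.51 in RSL3-R cells). The 9 replication genes gave 4 higher and 3 lower in erastin-R cells, against 27.1% and 26.8% of all genes. In RSL3-R cells 2 were higher and 2 lower, against 23.8% and 24.9% of all genes. Their erastin-R counts were the same without replicate 1, against 29.6% and 30.3% of all genes.

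Of 26 RNA processing and stability genes, 6 rose and 7 fell in erastin-R cells, near the 27.1% and 26.8% of all genes, and 9 rose and 11 fell without replicate 1, against 29.6% and 30.3%. In RSL3-R cells 2 rose and 13 fell, against 23.8% and 24.9% of all genes. LRPPRC, which holds mitochondrial mRNAs stable in a complex with SLIRP, passed in neither (log2 fold change -0.04, SE 0.06, adjusted p = 0.59, and -0.08, SE 0.06, adjusted p = 0.33). SLIRP was at 35.8, 39.5 and 38.2 CPM in vehicle-treated, 32.2, 25.3 and 27.2 CPM in erastin-R and 29.4, 27.2 and 33.6 CPM in RSL3-R cells, and fell in both (-0.42, SE 0.10, adjusted p = 0.0032, and -0.33, SE 0.10, adjusted p = 0.015), with -0.53 in erastin-R cells without replicate 1. PPARGC1A, a coactivator of mitochondrial biogenesis, had 3.95 to 6.90 CPM over all libraries and passed in neither (adjusted p = 0.42 and 0.63), but fell in erastin-R cells without replicate 1 (log2 fold change -0.45, SE 0.19, adjusted p = 0.039).

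TFB1M and TYMP were the remaining genes of these groups past the 2-fold rule, both in RSL3-R cells. TFB1M, the methyltransferase of the 12S rRNA, was at 11.1, 8.02 and 11.6 CPM in vehicle-treated, 17.01, 16.5 and 18.4 CPM in erastin-R and 16.9, 23.6 and 22.2 CPM in RSL3-R cells (log2 fold change 1.03, SE 0.15, adjusted p = 7.17e-05 in RSL3-R cells). TYMP, which degrades thymidine, was at 2.92, 2.03 and 1.85 CPM in vehicle-treated, 4.28, 4.13 and 3.16 CPM in erastin-R and 5.41, 4.41 and 5.66 CPM in RSL3-R cells (1.18, SE 0.21, adjusted p = 4.03e-04). Both were above the vehicle-treated range in every library of both surviving groups.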

How the data were processed

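The 9 libraries, 3 per group, were made from poly(A)-selected RNA of the MDA-MB-231 line, and groups and replicate numbers were taken from the labels. The authors deposited a count per gene and library, without normalization, made with HISAT2 2.0.5 and featureCounts 1.5.0-p3 per the submitters' processing notes. According to the methods only uniquely mapped exonic reads were used, and the strand setting was not given in the sources used here. Gene coordinates match GENCODE release 29 on GRCh38. The authors also deposited FPKM values, which were not used for any result.

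The counts were compared in R 4.3.3 with edgeR 4.0.16 (TMM, filterByExpr, glmQLFit and glmQLFTest, 1 model of all 9 libraries, no covariate), with Benjamini-Hochberg adjustment over 16188 genes and a threshold of 0.05. The 2-fold rule also asks for a log2 fold change of 1 or more in size. The study's fold rule with Cufflinks cannot be run on counts. Levels are TMM-scaled CPM. Shares, ratios and medians are descriptions without a test. The common dispersion was 0.00732, and 3 counts correspond to 0.174 to 0.195 CPM. Intervals cover counting error only. The fit was also run on simulated counts with the common dispersion for every gene and no outlying library. That run cannot show how the fit performs on genes with a wider spread. Alternatives were DESeq2 1.42.0, limma 3.58.1 after quantile normalization, other scalings and filters, summed bicistronic pairs, added nuclear copies, a replicate block and each library left out. Figures were drawn with matplotlib 3.10.9.

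The members, the gene lists and the tests were chosen with earlier results of these data known. All 37 members are accounted for, with values per library for the mRNAs, rRNAs and tested tRNAs. Of the nuclear lists, TFAM, TFB2M, POLRMT, LRPPRC, SLIRP, TWNK, POLG, PPARGC1A and genes past the 2-fold rule against vehicle are named, and of the nuclear copies those with a mean of at least 50 counts.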

Additional observations from a re-analysis of the deposited data

How the results depend on the processing

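Of 222 summary values under settings other than leaving out a library, 201 stayed within 1.5 times (counts) or within the replicate spread (other values). Direction was not part of this rule. No filter gave 10 members higher and 6 lower in RSL3-R against vehicle-treated cells, 22 higher and 1 lower in RSL3-R against erastin-R cells, and 5 nuclear subunits higher there. A fit of only the 2 groups compared gave 10 higher and 8 lower in RSL3-R and 0 higher in erastin-R cells against vehicle. The 2-fold rule left 0 higher and 9 lower in erastin-R, 0 higher in RSL3-R against vehicle-treated cells, and 8 higher in RSL3-R against erastin-R cells. Quantile normalization forces the highest-ranked gene, MT-CO1, to the same value in every library by its construction. It gave 3 members higher in erastin-R and 7 lower in RSL3-R against vehicle-treated cells, 4 members lower and 9 nuclear subunits higher in RSL3-R against erastin-R cells, and a median of 0.24 for the mRNAs there. It reversed MT-ND2 (0.20 in erastin-R against vehicle, -0.20 in RSL3-R against erastin-R), MT-ND4 (-0.30) and MT-ATP6 (-0.47, both in RSL3-R against erastin-R), and the cause was not tested for these. With the bicistronic pairs summed, 0 members were higher in erastin-R cells and the median of the mRNAs in RSL3-R against erastin-R cells was 0.27. Over protein-coding genes only, the share of counts was 7.55% in vehicle-treated and 8.77% in RSL3-R cells. The lists of nuclear genes and the medians were put through these settings after the data were seen. Counts of called genes in this section are given without the share of all genes in the same fit. They show only how the calls move with the setting.

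Leaving out each library in turn, members lower in erastin-R against vehicle numbered 13 to 22 and higher 0 to 1. Members higher in RSL3-R against vehicle numbered 1 to 10 and lower 2 to 8, and in RSL3-R against erastin-R cells 9 to 23 were higher and 0 to 1 lower. Nuclear subunits higher numbered 5 to 12, 1 to 2 and 2 to 13 in the same order of comparisons, the highest of the first and last without erastin-R replicate 1. MT-ATP8 reversed to -1.09 in erastin-R cells without that library, and its values ranged from -1.09 to 0.39. Libraries with the same replicate number did not deviate together (mean correlation -0.0049 over 9 pairs), and with the replicate number as a replicate block 18 members were lower and 1 higher in erastin-R, 2 lower and 4 higher in RSL3-R cells, and 17 were higher in RSL3-R than in erastin-R cells. Depth limits the tRNA genes, of which those under the filter on low counts were not tested.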
